A study of Mus musculus with 6 samples.

Results

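The Siglecs are cell surface lectins of the immunoglobulin superfamily that bind sialic acid, the sugar that caps many glycans of vertebrate cells. Of the 32285 features of the count tables, 7 were taken by gene symbol as Siglec genes: Siglece, Siglecf, Siglec1, Siglecg, Siglech, Cd22 and Cd33. They were measured in CD45-positive cells, the leukocyte fraction, that were isolated on magnetic beads from perfused and enzyme-digested mouse lungs. Lungs with an infiltrate of acute myeloid leukaemia (AML), a malignancy of immature myeloid cells, gave 3 libraries, and normal lungs gave another 3. The labels name neither the leukaemia model, the strain, the age nor any treatment, and they do not state whether each replicate was a different animal. The p-values therefore describe the spread among these libraries, part or all of which may be technical. The comparison asks in which leukocytes of the lung each Siglec gene was transcribed and whether its level differed where leukaemia was present.

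Most Siglecs carry tyrosine motifs in the cytoplasmic tail that recruit the phosphatases Ptpn6 and Ptpn11 and dampen activation of the cell that bears them. Others pair with the adaptor Tyrobp, which recruits the kinase Syk, and Siglec1, a long adhesion receptor of macrophages, has no such inhibitory motif. Because sialic acid marks the body's own cells, Siglecs are studied as brakes on myeloid cells and lymphocytes, and sialylated ligands on tumour cells as a way to engage them.

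The 6 libraries held 73095 barcodes with 43913245 to 66513826 UMIs (counted molecules) each, and 69600 cells were analysed after filtering. Depth per cell was uneven, with medians of 9472, 4089 and 1060 UMIs in AML replicates 1, 2 and 3, against 10591.5, 6346 and 2829.5 UMIs in normal replicates 1, 2 and 3. Cells were gated one by one from 22 marker lists, none of which holds a Siglec gene, and 55684 cells (80.0%) received a class. A class was given to 70.7% of the cells of AML replicate 3 and to 84.1% to 95.9% of those of the other libraries, and 11360 gated and 5676 ungated cells lay near the gate's limit. Gated alveolar macrophages had a median of 6 of 9 markers and nonclassical monocytes 5 of 8. No cell passed the gate for eosinophils, the cells that classically carry Siglecf in mice. The gate cannot tell leukaemic cells from host cells. At most 118 barcodes were shared by any pair of libraries, up to 1.13% of the smaller one. Levels are given in CPM, the gene's UMIs scaled to all UMIs of the summed class. AML replicate 3 carried myeloid transcripts in every class. Its T, B and NK cells, which should lack Siglece, held 12.8, 15.9 and 12.9 CPM of it, whereas these classes had at most 2.46 CPM in the other 5 libraries.

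Of the 7 genes, 6 lay on chromosome 7 in mm10 (GRCm38, GENCODE annotation), the build of the files. Siglecf (chr7:43351341-43359531, plus strand), Siglecg (chr7:43408204-43418358, plus strand), Cd33 (chr7:43524216-43544428, minus strand) and Siglece (chr7:43651070-43660161, minus strand) shared a stretch of 308.8 kb. Cd22 (chr7:30865402-30880342, minus strand) had Mag, a myelin lectin of the same family, 18.8 kb away on the same strand, and Siglech (chr7:55768178-55778925, plus strand) stood apart. Siglec1 lay on chromosome 2 (chr2:131069220-131086765, minus strand). All are protein-coding. The counts of Cd22 are read with the reservation that the opposite-strand gene model Gm29439 overlaps it, and those of Siglecg with the reservation that 3.63% of its transcript stretches of 60 bases also occur in Gm29791.

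The upstream sequences of 3 members are shown because these genes mark the classes that the results turn on: Siglecf and Cd33 in alveolar macrophages, Cd33 and Siglece in neutrophils, and Siglece in nonclassical monocytes. Each is the 250 bases before the transcription start in RefSeq (GRCm38.p6), read 5′ to 3′ on the gene's strand. For Siglecf and Siglece this window ends next to the start of the gene as given above. For Cd33 it lies inside the span given above, so that it is upstream of the RefSeq start only. In the first pair, capitals mark runs of 10 or more letters present in both sequences. In Siglece, capitals mark a match to TTNCNNAA, a loose form of the CEBP motif.
Siglecf (chr7:43351091-43351340, plus strand): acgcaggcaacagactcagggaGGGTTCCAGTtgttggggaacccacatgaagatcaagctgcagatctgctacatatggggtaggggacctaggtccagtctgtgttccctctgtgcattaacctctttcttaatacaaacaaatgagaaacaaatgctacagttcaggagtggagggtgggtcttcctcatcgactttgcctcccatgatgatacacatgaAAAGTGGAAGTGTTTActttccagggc
Cd33 (chr7:43533172-43533421, minus strand): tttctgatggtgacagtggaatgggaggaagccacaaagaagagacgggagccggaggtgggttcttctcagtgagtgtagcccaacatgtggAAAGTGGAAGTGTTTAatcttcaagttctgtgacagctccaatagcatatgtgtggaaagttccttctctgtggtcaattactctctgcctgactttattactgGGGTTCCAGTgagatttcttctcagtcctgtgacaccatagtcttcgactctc
Siglece (chr7:43660162-43660411, minus strand): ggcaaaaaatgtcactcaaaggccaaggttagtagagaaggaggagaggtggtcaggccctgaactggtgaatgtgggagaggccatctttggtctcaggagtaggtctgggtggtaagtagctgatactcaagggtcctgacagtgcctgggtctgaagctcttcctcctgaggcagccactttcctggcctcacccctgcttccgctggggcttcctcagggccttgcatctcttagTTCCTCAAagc
The 16-letter run AAAGTGGAAGTGTTTA of Siglecf and Cd33 was the longest that any of the 15 pairs of the 6 members with a RefSeq entry shared, and the longest run of any other pair had 9 letters. It holds GGAAGT, the letters of an ETS-type motif, which occurs on either strand of 19.99% of all 27025 upstream windows of this length, also in that of Siglech. TTNCNNAA occurs in 36.9% of them, also in those of Siglecf and Siglech, and in Siglece it lies 11 bases before the start. These are matches of letters only.

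**Figure D1:**
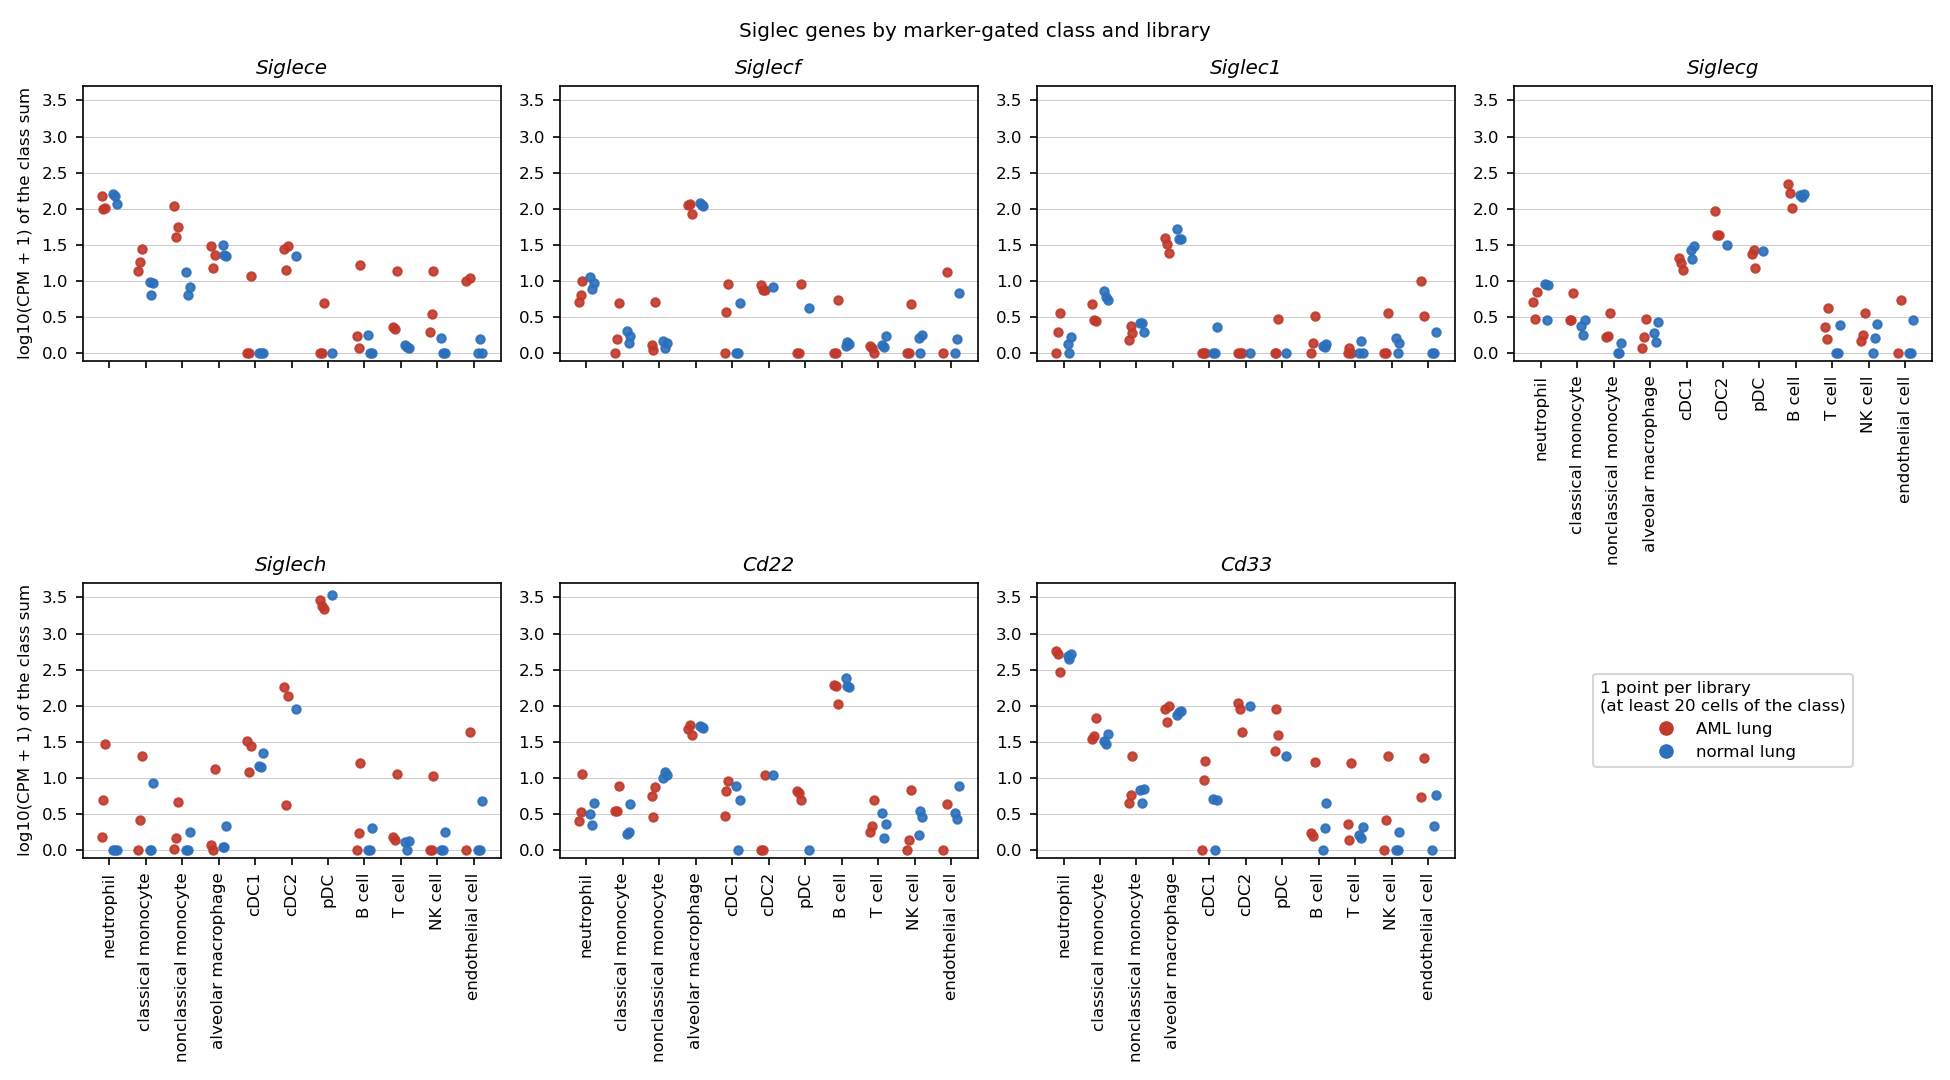
Level of each Siglec gene by gated class, as log10(CPM + 1) of the summed UMIs of a class, with 1 point per library that holds at least 20 cells of it, AML lung left and normal lung right in each class. Siglech stands highest in pDCs, Siglecf and Siglec1 in alveolar macrophages, Cd22 and Siglecg in B cells, and Cd33 and Siglece in neutrophils.

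Each Siglec gene was concentrated in a few classes of leukocyte. Siglech, the Tyrobp-coupled receptor of plasmacytoid dendritic cells (pDCs), reached 2954, 2434 and 2184 CPM in the pDCs of AML replicates 1, 2 and 3, against 3031, 2607 and 3448 CPM in those of normal replicates 1, 2 and 3. The groups overlapped (exact two-sided permutation p = 0.2, where 3 against 3 libraries cannot go below 0.1), and normal replicates 1 and 2 rest on 16 and 17 cells. The next class, cDC2 (the dendritic cells that present to helper T cells), held 182, 3.29 and 136 CPM in AML replicates 1, 2 and 3, against 89.4 CPM in normal replicate 3, the only normal library with at least 20 of these cells. Siglech was lower in cDC2 than in pDCs in 4 of these 4 libraries. Neutrophils had 0.510, 3.92 and 28.9 CPM of it in AML replicates 1, 2 and 3, against 0 CPM in each normal library. The value of 28.9 CPM came from AML replicate 3, which carried myeloid transcripts in every class. In that library Siglech also made up 45.1%, 22.8% and 17.0% of the Siglec UMIs of endothelial, T and NK cells. These classes held 82, 57 and 88 Siglec UMIs there. The part of such background in the neutrophil value was not tested. In cDC1, the cross-presenting dendritic cells, Siglech (log2 change 0.54) and Siglecg (-0.56) were tested and neither passed in edgeR (adjusted p = 0.805 and 0.776). Only 1 of 6216 genes (0.0161%) passed there, as higher in AML lung. With a looser gate, chosen after seeing the data, pDCs could be fitted in 3 AML and 2 normal libraries, and the edgeR log2 change of Siglech was -0.42 with an SE of 0.18 and an adjusted p of 0.484.

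B cells carried the inhibitory receptors Cd22, a coreceptor that restrains B cell receptor signalling, and Siglecg, which restrains B1 cells above all. Cd22 had 195, 188 and 106 CPM in the B cells of AML replicates 1, 2 and 3, against 241, 189 and 184 CPM in those of normal replicates 1, 2 and 3. Siglecg had 217, 167 and 103 CPM in AML lung, against 157, 146 and 161 CPM in normal lung. AML replicate 3 was the lowest library for both genes, and its B cells were also low in the summed B cell markers, with 6450 CPM in AML replicate 3 against 9698 to 10315 CPM in normal lung. Neither gene passed the threshold of an adjusted p of 0.05 in edgeR's quasi-likelihood test (Cd22 log2 change -0.32, SE 0.23, adjusted p = 0.616; Siglecg 0.07, SE 0.23, adjusted p = 0.931), in a class where 0% of 10801 genes tested did. After thinning each cell to 1000 UMIs, 127 of 5270 B cells held both, against 123 from the frequencies within each library. After B cells, Siglecg was highest in cDC2 (92.6, 42.8 and 43.0 CPM in AML lung and 30.3 CPM in the 1 normal library with at least 20 such cells) and in pDCs (14.2 to 25.9 CPM in AML lung, 25.5 CPM in that normal library).

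Alveolar macrophages, the resident phagocytes of the airspace, carried 5 of the 7 genes, and the level of none passed the threshold between AML and normal lung. Siglecf, an inhibitory receptor used to identify these cells in mice, had 111, 115 and 84.1 CPM in AML replicates 1, 2 and 3, against 118, 114 and 107 CPM in normal replicates 1, 2 and 3 (edgeR log2 change -0.12 with SE 0.13, adjusted p = 0.756). Siglec1, the adhesion receptor, had 38.6, 31.8 and 23.2 CPM in AML lung, against 51.5, 36.8 and 36.9 CPM in normal lung (edgeR log2 change -0.41 with SE 0.21, adjusted p = 0.550), with AML replicate 1 inside the normal range. Cd22, better known from B cells, was present at 46.8, 53.2 and 38.6 CPM in AML lung and at 51.7, 49.5 and 48.1 CPM in normal lung (edgeR log2 change -0.10 with SE 0.13, adjusted p = 0.815). The B cell markers summed over 8 genes reached 2.33 to 114 CPM in these macrophages of AML lung and 5.01 to 52.9 CPM in those of normal lung, and their part in these Cd22 values was not tested. Cd33, the myeloid Siglec whose human form is an antibody target in AML, had 90.6, 59.2 and 97.1 CPM in AML lung against 74.3, 82.3 and 83.8 CPM in normal lung, and Siglece had 29.5, 14.3 and 22.0 CPM in AML lung against 31.0, 22.2 and 21.3 CPM in normal lung. In this class 0% of 11646 genes tested passed the threshold. Pairs of the 5 receptors were found in the same cell in 1 to 39 of 6294 thinned macrophages, the most for Siglecf and Cd33, where their single frequencies gave 48.5.

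Most Siglecf and Siglec1 UMIs came from alveolar macrophages. This class held 95.02%, 85.1% and 57.3% of the Siglecf UMIs of AML replicates 1, 2 and 3, and 98.2%, 97.7% and 89.9% of those of normal replicates 1, 2 and 3. For Siglec1 the shares were 85.4%, 51.7% and 60.3% in AML lung, against 95.7%, 94.2% and 89.4% in normal lung. Nonclassical monocytes held up to 24.4% of the Siglec1 UMIs of a library, and classical monocytes up to 7.56%. By level in CPM, neutrophils came next for Siglecf, with 4.08 to 9.03 CPM in AML lung against 6.87 to 10.4 CPM in normal lung. Siglecf was higher in alveolar macrophages than in neutrophils in 6 of 6 libraries, by 3.75 ± 0.517 on the log2(CPM + 1) scale (SD, n = 6). For Siglec1 the next class by level was the classical monocytes, lower in 6 of 6 libraries by 2.98 ± 0.301. Of 77 such neighbour pairs over the 7 genes, 8 reached the smallest exact sign-flip p that 6 libraries allow, 0.0313, and none passed after Benjamini-Hochberg adjustment (smallest adjusted p = 0.301). In the order for Siglece, nonclassical monocytes and alveolar macrophages did not differ beyond their spread, since nonclassical monocytes were higher in the 3 AML libraries and lower in the 3 normal ones.

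**Figure D2:**
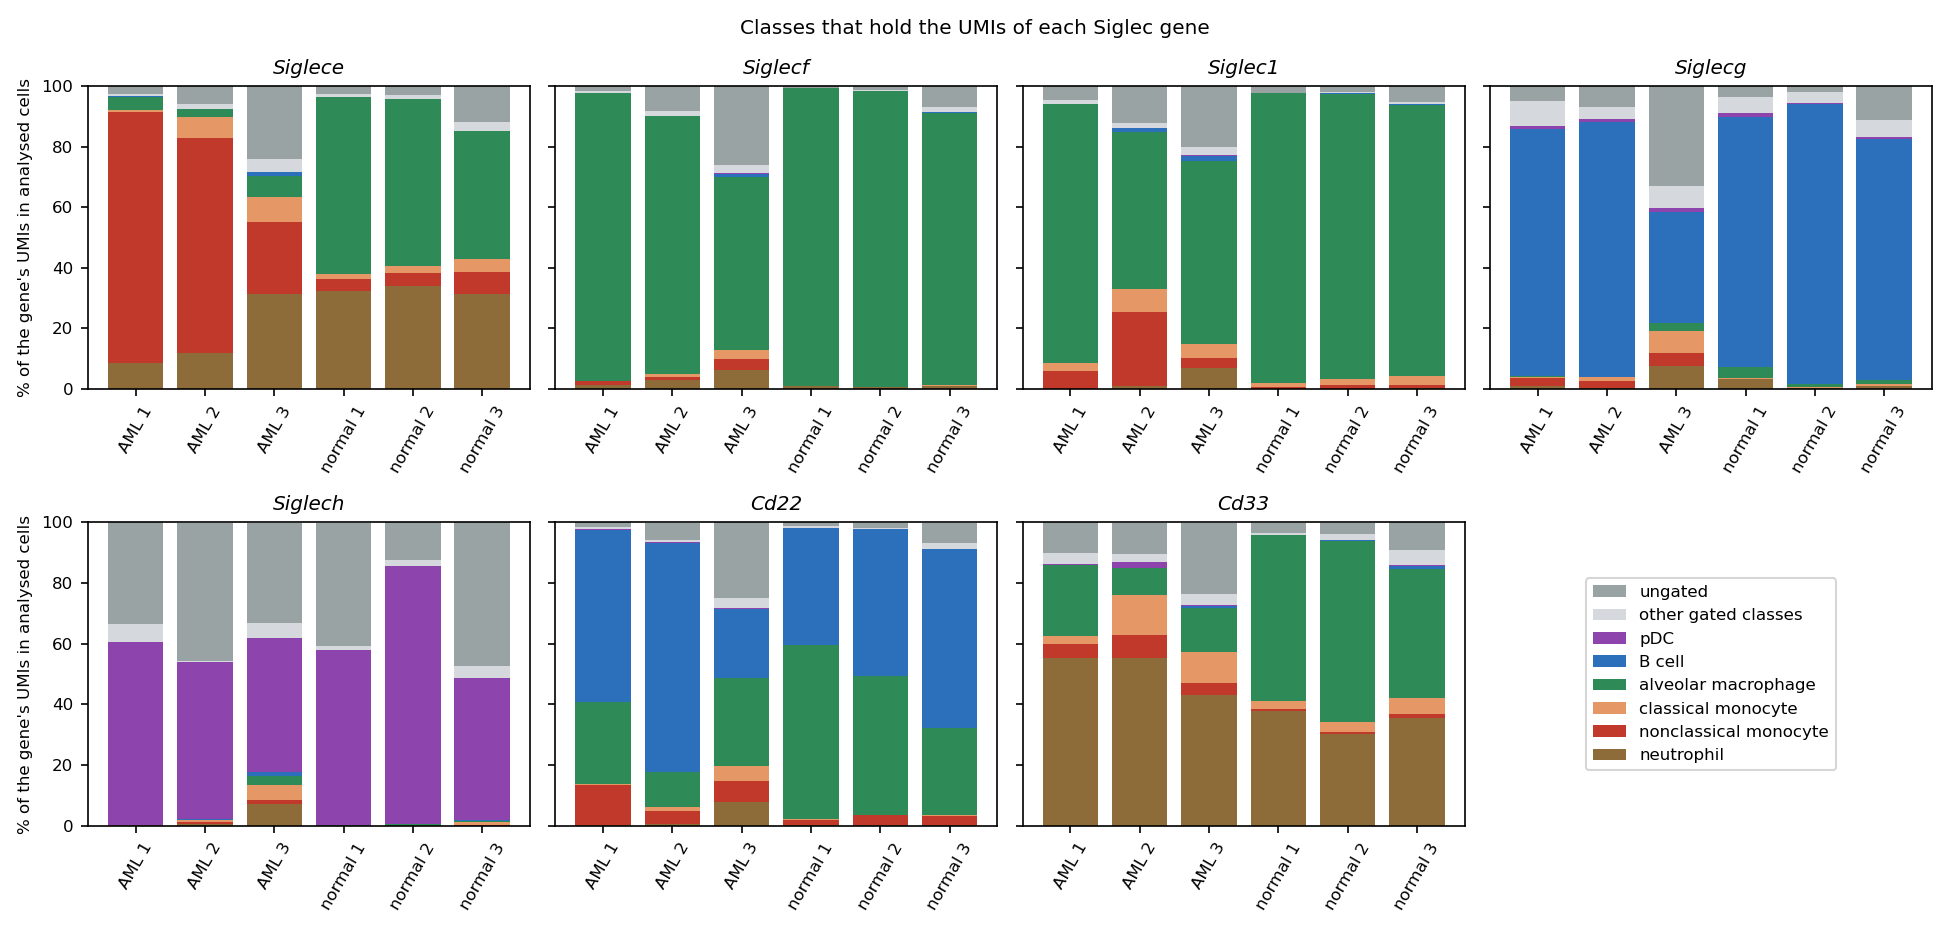
Share of the UMIs of each Siglec gene in analysed cells that came from each class, in percent, with 1 bar per library and AML libraries on the left. The nonclassical monocyte share of Siglece is 82.6%, 71.0% and 23.8% in AML lung and 3.93% to 7.13% in normal lung.

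Neutrophils led for Cd33 and Siglece. Cd33 had 568, 518 and 289 CPM in the neutrophils of AML replicates 1, 2 and 3, against 483, 447 and 517 CPM in those of normal replicates 1, 2 and 3, so that AML replicate 3 lay below the normal libraries and the other AML libraries lay above them. Clustering gave 2 clusters named neutrophil. Cells of the cluster that held most neutrophils of the other libraries had 603 CPM of Cd33 in AML replicate 3, whereas the 4266 cells of a cluster mostly of that library had 167 CPM. Siglece, an inhibitory receptor of neutrophils and monocytes, had 148, 97.5 and 102 CPM in AML lung, against 162, 147 and 117 CPM in normal lung. Neither passed the threshold (Cd33 log2 change -0.08, SE 0.33, edgeR adjusted p = 0.923; Siglece -0.33, SE 0.27, adjusted p = 0.576), and 0% of 7667 genes tested in neutrophils did. After thinning, 175 of 4910 neutrophils held both, against 165 from the single frequencies. Among the smaller classes without a fit, late neutrophil precursors had 99.7 and 51.2 CPM of Siglece and 116 and 165 CPM of Cd33 in AML replicates 2 and 3, the libraries with at least 20 such cells.

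Siglece was higher in the nonclassical monocytes of AML lung. These are the patrolling monocytes of the vessel wall, gated here from Ace, Treml4, Cd300e and 5 further markers. Siglece had 107, 39.6 and 55.4 CPM in AML replicates 1, 2 and 3, against 12.6, 5.40 and 7.38 CPM in normal replicates 1, 2 and 3. Every AML library lay above every normal one, and the mean ± SD over 3 libraries each was 67.4 ± 35.4 CPM in AML lung against 8.45 ± 3.698 CPM in normal lung, from 4406 UMIs in AML lung and 120 UMIs in normal lung. The log2 change was 3.05 (SE 0.44, edgeR adjusted p = 0.0163). This was the only one of 19 tested pairs of a member and a class, of 70 possible in 10 classes, that passed. An unadjusted p below 0.05 in edgeR was found for 4 of the 19, with 2 in nonclassical and 2 in classical monocytes. Over all genes, 2427 of 11207 in nonclassical and 2153 of 9824 in classical monocytes had such a p. In nonclassical monocytes 3.47% of 11207 genes passed, 1.99% as higher and 1.48% as lower in AML lung. No member could be tested in NK cells, where 0.0423% of genes passed, 0.0317% as higher and 0.0106% as lower. The call was kept without any 1 AML library (adjusted p = 0.00367 to 0.0286) and lost without any 1 normal library, at log2 changes of 2.82 to 3.42 with adjusted p = 0.0831 to 0.106. In AML replicate 3 lymphocytes held 12.8 to 15.9 CPM of Siglece, beside the 55.4 CPM of its nonclassical monocytes.

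**Figure D3:**
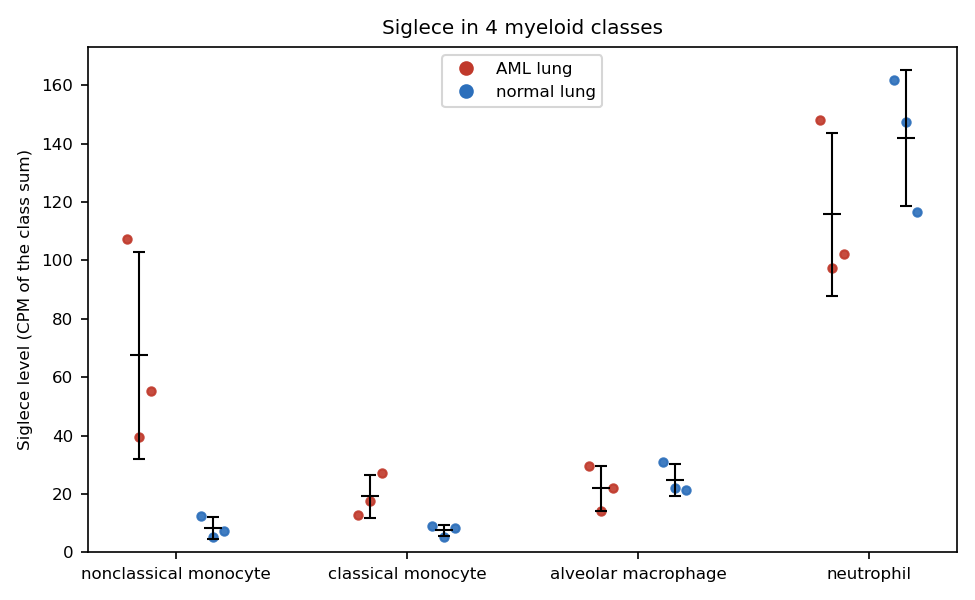
Siglece level in 4 myeloid classes, in CPM of the summed class, with 1 point per library and bars for the mean ± SD (n = 3 per group), AML lung left and normal lung right. In nonclassical monocytes the AML libraries lie between 39.6 and 107 CPM and the normal ones between 5.40 and 12.6 CPM, whereas the groups overlap in alveolar macrophages and neutrophils.

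The share of nonclassical monocytes with at least 1 Siglece UMI was 53.6%, 16.9% and 6.94% in AML replicates 1, 2 and 3, against 9.50%, 3.71% and 3.31% in normal replicates 1, 2 and 3. Their median depths were 10243, 5092 and 1074 UMIs in AML lung and 10054, 6882 and 4047.5 UMIs in normal lung. After thinning to 1000 UMIs the shares were 9.47% (95% exact binomial interval 8.31 to 10.7%), 3.96% (3.43 to 4.55%) and 5.43% (4.69 to 6.23%) in AML lung. They were 1.32% (0.431 to 3.06%), 1.11% (0.479 to 2.17%) and 0.749% (0.302 to 1.54%) in normal lung, and no AML library overlapped a normal one. Thinning left out 5, 308 and 2820 shallower cells in AML lung and 1, 4 and 123 in normal lung. In T cells, which should lack the gene, the thinned shares were 0%, 0.294% and 1.16% in AML lung, against 0%, 0% and 0.0960% in normal lung, with upper exact bounds of 0.827% for AML replicate 1 and 1.14% and 0.584% for normal replicates 1 and 2. The exact two-sided permutation test of the thinned shares gave p = 0.1, the smallest possible, and none of 56 shares passed after adjustment.

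Which nonclassical monocytes were sampled differed between the groups. Clustering without the Siglec genes split the class, and the 3 clusters with the most of its cells were 0, 1 and 13. Cluster 0, led by Il10 and by Spic, a transcription factor of red pulp macrophages, held 91.0%, 77.1% and 7.74% of the class in AML replicates 1, 2 and 3, against 5.80%, 4.95% and 4.44% in normal replicates 1, 2 and 3. Cluster 13 held 3.14%, 0.270% and 3.72% of the class in AML lung, against 83.4%, 73.9% and 57.3% in normal lung. Within cluster 0, Siglece had 112, 41.6 and 75.0 CPM in AML lung, against 76.9, 28.2 and 22.0 CPM in normal lung from 17, 7 and 5 UMIs, and the log2 change of 0.85 did not pass (edgeR adjusted p = 0.513). Within cluster 13, Siglece had 56.0 and 46.7 CPM in AML replicates 1 and 3, from 38 and 27 UMIs. In normal lung it had 8.75, 4.79 and 6.68 CPM there, from 31, 20 and 23 UMIs. AML replicate 2 held 14 cells of this cluster and was left out. The edgeR log2 change was 2.97 with SE 0.31 (adjusted p = 0.00135), in a fit that 23 of 10273 genes passed. Cluster 1 held 3.09%, 13.6% and 51.8% of the class in AML lung, against 2.37%, 5.64% and 14.7% in normal lung. There Siglece had 114, 39.2 and 63.5 CPM in AML lung, against 0 and 20.4 CPM in normal replicates 2 and 3. The log2 change in cluster 1 was 2.26 (edgeR adjusted p = 0.413). These fits by cluster, like those by Spic below, were chosen after seeing the data. In the smaller cluster 10 the groups overlapped. Siglece had 4.77, 5.66 and 28.6 CPM there in AML lung, from 3, 6 and 6 UMIs. In normal lung it had 12.4, 3.27 and 1.37 CPM, from 5, 3 and 1 UMIs.

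Cells without a Spic UMI showed the difference as well, but the lack of a UMI does not show that a cell lacked Spic. Of the cells of cluster 0, 37.7%, 24.5% and 25.2% held a Spic UMI in AML replicates 1, 2 and 3. In normal replicates 1, 2 and 3 these shares were 45.5%, 22.2% and 36.2%. The cells without a Spic UMI therefore include cells of that cluster. In nonclassical monocytes without one, Siglece had 93.2, 34.5 and 52.7 CPM in AML replicates 1, 2 and 3, against 8.82, 5.22 and 7.09 CPM in normal replicates 1, 2 and 3, and the log2 change was 3.12 (SE 0.39, edgeR adjusted p = 0.0135). Cells with a Spic UMI had 129, 55.0 and 88.2 CPM in AML lung, against 52.2, 10.4 and 13.7 CPM in normal lung, where they numbered 27, 20 and 37. In all 6 libraries Siglece was higher in cells with a Spic UMI, though in normal replicates 1, 2 and 3 those cells held only 19, 2 and 3 Siglece UMIs. Of the markers of other classes within nonclassical monocytes, the 5 classical monocyte markers summed to 213 to 253 CPM in AML lung against 217 to 251 CPM in normal lung, and the 7 neutrophil markers to 106 to 395 CPM in AML lung against 186 to 225 CPM in normal lung. The 7 immature myeloid markers, Mpo, Elane and Kit among them, summed to 2.74 to 9.35 CPM in AML lung against 1.66 to 3.19 CPM in normal lung, with 2 of them at 0 in normal lung. The groups did not overlap for 4 further lists. The 7 interstitial macrophage markers summed to 20.2 to 66.1 CPM in AML lung against 4.99 to 18.9 CPM in normal lung, and the 7 mature DC markers to 7.12 to 22.9 CPM in AML lung against 5.45 to 6.78 CPM in normal lung. The cDC1 markers, at 202 to 214 CPM in AML lung against 317 to 374 CPM in normal lung, and the endothelial markers, at 27.9 to 61.4 CPM in AML lung against 61.6 to 66.6 CPM in normal lung, lay lower in AML lung. Siglece itself stood at 54.0 and 52.9 CPM in the gated interstitial macrophages of AML replicates 2 and 3, from 6 and 9 UMIs, and mature DCs had 0 and 24.8 CPM in AML replicates 2 and 3 against 0 CPM in normal replicates 2 and 3. The part of these other classes in the result was not tested.

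**Figure D4:**
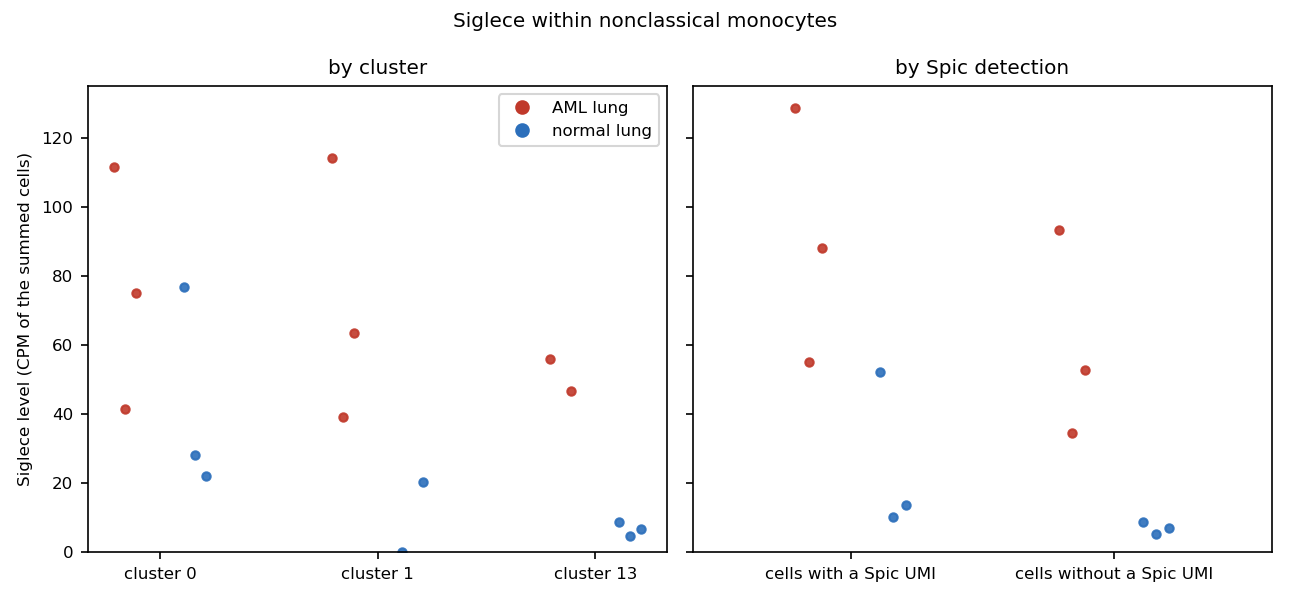
Siglece level in CPM within nonclassical monocytes, by cluster (left, those with the most cells) and by detection of Spic (right), with 1 point per library that holds at least 20 such cells, AML lung left and normal lung right. Normal libraries reach 22.0 to 76.9 CPM in cluster 0 but stay at 4.79 to 8.75 CPM in cluster 13, where the AML libraries have 46.7 and 56.0 CPM.

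The other members tested in these cells did not pass. Cd22 had 4.62, 1.86 and 6.55 CPM in the nonclassical monocytes of AML replicates 1, 2 and 3, against 9.01, 11.0 and 9.97 CPM in those of normal replicates 1, 2 and 3. The groups did not overlap, yet the log2 change of -1.22 (SE 0.42) did not pass (edgeR adjusted p = 0.153). It passed without AML replicate 3 (log2 change -1.60, edgeR adjusted p = 0.0266). Cd33 had 3.52, 4.83 and 18.9 CPM in AML lung against 5.92, 3.60 and 5.98 CPM in normal lung (edgeR log2 change 0.80 with SE 0.64, adjusted p = 0.4998), and the highest value came from AML replicate 3, whose T, B and NK cells held 15.2 to 19.3 CPM of it.

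No member passed in classical monocytes, the inflammatory monocytes that carry Ly6c2 and Ccr2. Siglece had 12.7, 17.6 and 27.2 CPM in AML replicates 1, 2 and 3, against 8.88, 5.42 and 8.29 CPM in normal replicates 1, 2 and 3, with no overlap. The log2 change of 1.37 (SE 0.33) did not pass in edgeR (adjusted p = 0.0652), though it did in DESeq2 (adjusted p = 0.0233). Here too the lymphocytes of AML replicate 3 held up to 15.9 CPM. Siglec1 ran the other way, with 3.81, 1.92 and 1.79 CPM in AML lung against 6.39, 5.03 and 4.52 CPM in normal lung, from 30 UMIs in AML lung and 43 UMIs in normal lung (edgeR log2 change -1.29 with SE 0.40, adjusted p = 0.111). Cd33 had 34.3, 37.6 and 66.4 CPM in AML lung against 31.6, 29.0 and 39.6 CPM in normal lung (edgeR log2 change 0.47 with SE 0.27, adjusted p = 0.348). Of 9824 genes tested 2.46% passed there, 1.54% as higher and 0.926% as lower in AML lung. Immature myeloid markers reached 109 to 482 CPM in the classical monocytes of AML lung, against 21.7 to 22.6 CPM in those of normal lung. Late neutrophil precursor markers reached 20.3 to 42.5 CPM in AML lung against 3.77 to 7.35 CPM in normal lung, and interstitial macrophage markers 33.4 to 98.4 CPM in AML lung against 9.59 to 20.7 CPM in normal lung, while cDC2 markers were at 29.1 to 78.3 CPM in AML lung against 100.2 to 130.0 CPM in normal lung. The gated late neutrophil precursors and interstitial macrophages of AML replicates 2 and 3 held 51.2 to 99.7 CPM of Siglece, and the part of these classes in the values was not tested.

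The Siglece difference was larger in nonclassical monocytes than in alveolar macrophages and neutrophils of the same libraries. A test of the difference itself, with the library as a block, gave 3.21 on the log2 scale for nonclassical monocytes minus alveolar macrophages (SE 0.24, edgeR adjusted p = 0.00892, in a test that 0.676% of 12570 genes passed). For nonclassical monocytes minus neutrophils it gave 3.37 (SE 0.38, edgeR adjusted p = 0.0408), where 0.07% of 11432 genes passed. Against classical monocytes the difference of 1.48 (SE 0.54) did not pass (edgeR adjusted p = 0.234, background 0.9% of 11666 genes). The first of these was lost without normal replicate 3 (adjusted p = 0.0705), and the second without any 1 library other than AML replicate 3 (adjusted p = 0.0804 to 0.300).

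**Figure D5:**
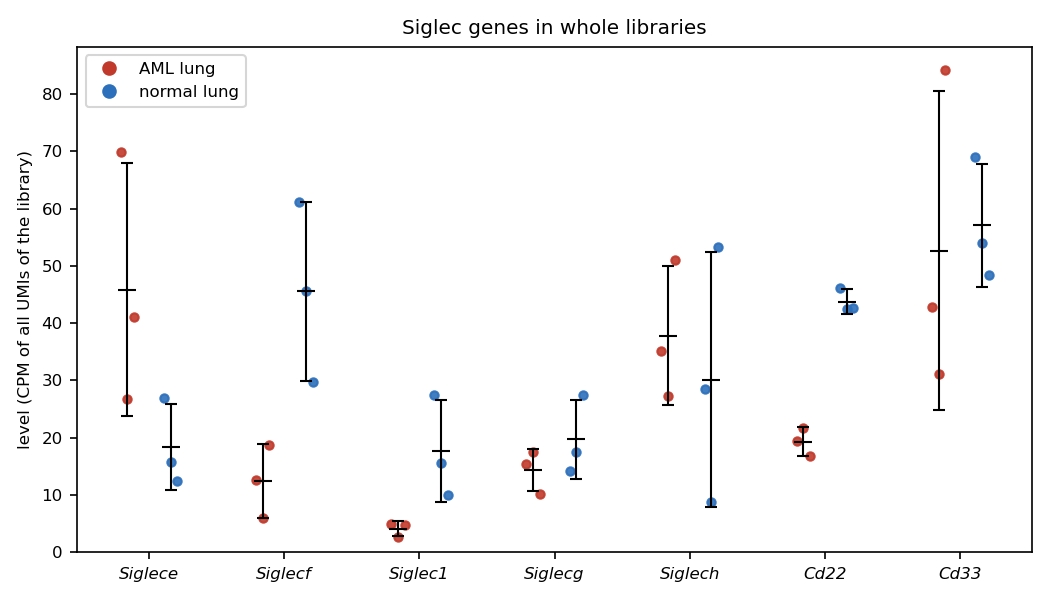
Level of each Siglec gene in whole libraries, in CPM of all UMIs, with 1 point per library and bars for the mean ± SD (n = 3 per group), AML lung left and normal lung right. Cd22, Siglec1 and Siglecf lie lower in AML lung without overlap, and AML replicate 1 has the highest Siglece at 69.9 CPM.

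In whole libraries, summed over all barcodes before any gate, 3 of the 7 genes were lower in AML lung and none higher, where 9.9% of 16856 genes passed in either direction, 6.18% as higher and 3.72% as lower. In such sums fewer cells of a type and less RNA per cell cannot be told apart. Cd22 had 19.4, 21.8 and 16.9 CPM in AML replicates 1, 2 and 3, against 46.2, 42.5 and 42.6 CPM in normal replicates 1, 2 and 3 (edgeR log2 change -1.05 with SE 0.13, adjusted p = 0.0102). Siglec1 had 5.01, 2.66 and 4.84 CPM in AML lung against 27.4, 15.7 and 10.0 CPM in normal lung (edgeR log2 change -1.97 with SE 0.42, adjusted p = 0.0372). Siglecf had 12.7, 5.97 and 18.8 CPM in AML lung against 61.1, 45.7 and 29.8 CPM in normal lung (edgeR log2 change -1.75 with SE 0.44, adjusted p = 0.0496). The groups did not overlap for any of the 3. All 3 calls were lost when single libraries were left out: without normal replicate 1 or without normal replicate 2 none of them passed (adjusted p = 0.0532 to 0.146), without AML replicate 1 or 2 only Cd22 did, and without normal replicate 3 Siglecf did not (adjusted p = 0.0567).

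Beside these values, gated alveolar macrophages made up 6.28%, 3.47% and 11.4% of analysed cells in AML replicates 1, 2 and 3, against 28.9%, 21.8% and 15.9% in normal replicates 1, 2 and 3. They held 10.9%, 4.49% and 12.6% of UMIs in AML lung, against 51.8%, 39.7% and 24.7% in normal lung. B cells made up 8.64%, 11.8% and 4.51% of cells in AML lung, against 14.7%, 19.5% and 18.5% in normal lung. Within the alveolar macrophages and B cells themselves the same genes differed by log2 changes of -0.10 to -0.41, as given above. Siglece was at 69.9, 26.7 and 41.0 CPM in AML lung, against 26.9, 15.7 and 12.5 CPM in normal lung (edgeR log2 change 1.44 with SE 0.41, adjusted p = 0.0667), with AML replicate 2 just below normal replicate 1. Nonclassical monocytes made up 52.2%, 42.4% and 18.1% of cells in AML lung, against 11.0%, 13.8% and 11.1% in normal lung. Siglecg, Siglech and Cd33 overlapped between the groups and had log2 changes of -0.32, 0.46 and 0.01.

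The wider sialic acid pathway was read from 46 genes in 6 lists. In nonclassical monocytes 37 of them were tested and 1 was lower, in a class where 3.47% of all genes passed and 1.48% were lower, so the count is near that background. It was St8sia4, which builds polysialic acid, with 132, 129 and 157 CPM in AML lung against 283, 211 and 245 CPM in normal lung (edgeR log2 change -0.80 with SE 0.14, adjusted p = 0.0261). The median log2 change over the 12 sialyltransferases tested there was -0.38, against 0.01 over all genes. It was the lowest of the 6 lists, and the others ran from -0.04 to 0.39. In the other classes the sialyltransferase median ran from -0.37 in mature DCs to 0.21 in alveolar macrophages. In classical monocytes 2 of 37 were higher, where 2.46% of all genes passed and 1.54% were higher. Pilra, an inhibitory receptor that binds sialylated ligands, had 79.3, 103 and 76.8 CPM in AML lung against 56.1, 49.5 and 38.8 CPM in normal lung (edgeR log2 change 0.82 with SE 0.18, adjusted p = 0.0497). Cd24a, a sialylated ligand of Siglecg, had 40.6, 21.4 and 31.5 CPM in AML lung against 7.46, 6.58 and 7.16 CPM in normal lung (edgeR log2 change 2.08 with SE 0.28, adjusted p = 0.0132). Immature myeloid, late neutrophil precursor and interstitial macrophage markers were also higher in these classical monocytes of AML lung, as given above. Their part in the Pilra and Cd24a values was not tested. In the other 8 classes none of the 22 to 37 genes tested passed.

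In whole libraries 13 of 43 tested pathway genes were higher in AML lung and 1 was lower, where 6.18% of 16856 genes were higher and 3.72% lower. The lower one was Mag, with 3.22, 2.04 and 3.14 CPM in AML lung against 8.91, 6.46 and 6.15 CPM in normal lung (edgeR log2 change -1.23 with SE 0.26, adjusted p = 0.0367). Among those with the lowest p were Pilrb2 and Pilrb1, activating partners of Pilra, the kinase Fgr, the ganglioside sialyltransferase St3gal5, and Tyrobp. Pilrb2 had 67.2, 49.9 and 44.7 CPM in AML lung against 21.2, 21.6 and 17.9 CPM in normal lung. Among the effectors of Siglec signalling Tyrobp had 1555, 1649 and 1792 CPM in AML lung against 1033, 1071 and 1100.2 CPM in normal lung. Within nonclassical monocytes Pilrb2 stood at 108, 83.5 and 82.7 CPM in AML lung against 91.0, 83.9 and 74.2 CPM in normal lung. By class, Mag was present at 12.2 to 15.7 CPM in alveolar macrophages of AML lung against 14.6 to 19.6 CPM in those of normal lung, and in NK cells at 3.87 to 15.04 CPM in AML lung against 13.6 to 14.1 CPM in normal lung. Siglec15, a further family member, stayed at or below 0.0806 CPM in every whole library.

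The genes whose levels ran most like those of a member were looked up over 72 sums of a class and a library, among 9813 genes, as Pearson correlations of log2(CPM + 1). The sums share libraries and depth, and the values are descriptions. Siglece ran most like Pilra (0.89), Trem3 (0.88) and Pilrb2 (0.88), all myeloid receptors. Cd33 ran most like the chemokine receptor Ccr1 (0.89), Cd300lf (0.85) and Clec4d (0.84). For Siglec1 the nearest were Clmn (0.89), Cidec (0.87), itself a marker in the alveolar macrophage gate, and Trim29 (0.87), and for Siglecf Slc6a4 (0.80), Trim29 (0.80) and Ctsk (0.78). Siglecg was nearest to H2-DMb2 (0.84), Ero1lb (0.81) and Kctd14 (0.81), and Cd22, spread over B cells and macrophages, to Ffar1 (0.77), Scd1 (0.74) and the low-affinity IgE receptor Fcer2a (0.72). Siglech was nearest to Grm8 (0.88), a marker in the pDC gate, Sh3bgr (0.84) and Dntt (0.84).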

How the data were processed

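The authors deposited, per the file headers and the labels, raw UMI counts per gene and barcode for 32285 features. Per the submitters' processing notes they were made with Cell Ranger 7.0.0 on mm10, and which barcodes were kept by the authors is not given in these sources. Cells with at least 500 UMIs, 200 genes and under 10% mitochondrial UMIs were kept (71634), and 2034 predicted doublets (Scrublet in scanpy 1.11.5) were left out. Scrublet's own threshold marked no cell in AML replicate 3 and normal replicate 3, so the median threshold of the others, 0.209, was used there. A cell was assigned to the type with the largest share of its markers detected, given at least 2 markers and a second type at no more than 0.75 of that share, limits set after marker detection had been seen. Leiden clustering (leidenalg 0.10.2, resolution 1) without the Siglec genes gave 32 clusters, of which 24 were named.

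UMI counts were summed per class and library with at least 20 cells and tested with edgeR 4.0.16 (TMM, filterByExpr, quasi-likelihood F test, Benjamini-Hochberg over all genes, 0.05). The SE is the log2 change over the square root of F. Levels are plain CPM, and intervals cover counting error only at 95%. Simulated counts with known changes were used to test the fits. Alternatives were DESeq2 1.42.0, RLE factors, no filter, a replicate block, leaving out each library, other gates, Leiden classes, doublets kept and a stricter cell filter. The members and lists were chosen with earlier results of these data known. Genes named in the text are the 7 members, pathway genes past the threshold (up to 6 per class by p) and the 3 genes most like each member. The values of 1 further gene under this rule are not reported here.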

Additional observations from a re-analysis of the deposited data

Results flagged for a closer look

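The effect of AML on Siglece differed between classes of the same libraries. The log2 change in nonclassical monocytes exceeded that in alveolar macrophages by 3.21 and that in neutrophils by 3.37, and each difference passed edgeR's test of the interaction (adjusted p = 0.00892 and 0.0408). In nonclassical monocytes all 3 AML libraries lay above all 3 normal ones, while in alveolar macrophages and neutrophils the groups overlapped.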

How the results depend on the processing

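Over all alternatives, 331 of the values of 29 single results kept their direction and side of the threshold, 25 lost it, 7 gained it and 13 changed sign. The causes were not tested. Of 1 member call within classes, no low count filter gave 8, DESeq2 2 and the replicate block 2, and leaving out 1 library gave 0 to 2. Siglece in nonclassical monocytes was past the threshold under 14 of 19 alternatives (log2 change 0.85 to 3.42, adjusted p = 9.42e-13 to 0.513). Against 389 genes in nonclassical monocytes, no filter gave 1034, the replicate block 739, DESeq2 982 and Leiden classes 743, and leaving out 1 library 0 to 1647. Against 242 in classical monocytes these gave 1331 (no filter), 594 (replicate block), 570 (DESeq2), 152 (doublets kept) and 3 to 1270 (1 library left out). Against 5 in the other 8 classes they gave 2208 (no filter), 512 (replicate block), 792 (DESeq2), 11 (strict gate), 2 (looser gate), 14 (Leiden classes), 54 (stricter cell filter) and 0 to 472 (1 library left out). Of 3 members called in whole libraries, the replicate block gave 0 and leaving out 1 library 0 to 3. Of 2 called differences between classes, leaving out 1 library gave 0 to 3. Of 3 pathway genes called within classes, DESeq2 gave 20 and the replicate block 22. In every gated class compared, deviations of same-numbered AML and normal libraries from their group mean correlated positively for numbers 1 and 3. Number 1 against number 3 correlated negatively. In nonclassical monocytes the same-numbered values were 0.30, 0.027 and 0.35 for numbers 1, 2 and 3. In whole libraries they were 0.21, -0.12 and -0.081. Median depth fell from number 1 to 3 in both groups, and its part was not tested. Deviations from a mean of 3 libraries sum to 0, so these correlations cannot decide whether the numbers pair the samples. The labels name no pairing, and the main fits did not use one. With the numbers as a block, 94 genes passed in whole libraries, against 1669 in the main fit. The log2 change of Cd33 turned to -0.069 in alveolar macrophages under Leiden classes and to -0.11 in whole libraries under the replicate block. Leaving out 1 library gave ranges that crossed 0 for Siglecg in B cells (-0.19 to 0.29), in alveolar macrophages for Cd22 (-0.23 to 0.000258), Cd33 (-0.076 to 0.23) and Siglece (-0.40 to 0.046), and for Cd33 in neutrophils (-0.36 to 0.23), nonclassical monocytes (-0.26 to 1.20) and whole libraries (-0.52 to 0.27). The looser gate, the fits without cells with a Spic UMI and those of single clusters were chosen after seeing the data. Depth limits the shares most in AML replicate 3, where 2820 of its nonclassical monocytes were too shallow to thin.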
